A study of Homo sapiens with 4 samples.

Results

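The genes described here encode proteins of the centrosome, of augmin and of the gamma-tubulin complexes, and they were taken by name: every gene whose symbol is CEP with digits (CEP55, a protein of the final cut between daughter cells, was left out), HAUS with a digit or TUBGCP with a digit. The rule found 45 of the 18132 genes on the array that have a probe set with 1 gene symbol, of which 32 are CEP genes, 8 are HAUS genes and 5 are TUBGCP genes. Each gene was read from its brightest probe set over the 4 arrays, a choice that does not use the difference between groups. The SCC-9 line, derived from a human squamous carcinoma of the tongue, had been transfected with miR-585-5p mimics, which are synthetic copies of that microRNA, or with miR-NC, a control small RNA, each at 30 nM. Total RNA was taken 36 hours after transfection and hybridised to PrimeView arrays, 2 for the mimic and 2 for miR-NC. The comparison asks which of these transcripts change with added miR-585-5p. Whether the paired arrays within a group stem from separate cultures is not stated in the labels, so p-values here cover the spread between arrays and nothing wider.

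The centrosome is the main site from which animal cells grow microtubules, and it is built around a pair of centrioles that are copied once in each cell cycle. CEP proteins carry out that copying, form the linker between centrosomes and the appendages of the older centriole, and build the cilium that the older centriole can seed. The gamma-tubulin complex proteins form the ring-shaped template from which a microtubule starts, and augmin places that template on microtubules that already exist, chiefly in the mitotic spindle.

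The mature sequence of the transfected microRNA is shown with its seed, bases 2 to 8, in capitals, since the seed is the part through which a microRNA mainly pairs with transcripts; it is from RefSeq on GRCh38.p14, where it lies at chr5:169263649-169263670 on the minus strand.
hsa-miR-585-5p: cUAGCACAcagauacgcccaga

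The 6 members that changed at least 2-fold are shown next by the 150 bases before their RefSeq start (GRCh38.p14), 5′ to 3′ on the gene's own strand, so that the starts of the most changed genes can be read beside their values. CEP43, CEP131, CEP97 and HAUS3 rose in the mimic cells, and CEP41 and CEP126 fell. Capitals mark CCAAT or its reverse complement ATTGG, and the run CCAATTGG of CEP97 is a pair of overlapping matches on opposite strands.
CEP43 (chr6:166999247-166999396, plus strand): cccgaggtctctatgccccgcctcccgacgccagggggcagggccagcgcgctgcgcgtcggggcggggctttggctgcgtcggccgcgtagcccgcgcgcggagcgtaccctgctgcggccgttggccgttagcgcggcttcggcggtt
CEP131 (chr17:81222966-81223115, minus strand): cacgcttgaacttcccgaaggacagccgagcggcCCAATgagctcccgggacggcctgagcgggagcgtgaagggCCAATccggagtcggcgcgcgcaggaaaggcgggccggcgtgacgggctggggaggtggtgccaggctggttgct
CEP97 (chr3:101724464-101724613, plus strand): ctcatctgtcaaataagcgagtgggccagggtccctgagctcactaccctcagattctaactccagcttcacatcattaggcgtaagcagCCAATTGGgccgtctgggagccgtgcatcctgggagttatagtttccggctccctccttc
HAUS3 (chr4:2242122-2242271, minus strand): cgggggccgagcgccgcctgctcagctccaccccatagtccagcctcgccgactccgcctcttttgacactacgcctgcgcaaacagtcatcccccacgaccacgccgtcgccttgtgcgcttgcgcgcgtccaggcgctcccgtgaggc
CEP41 (chr7:130441017-130441166, minus strand): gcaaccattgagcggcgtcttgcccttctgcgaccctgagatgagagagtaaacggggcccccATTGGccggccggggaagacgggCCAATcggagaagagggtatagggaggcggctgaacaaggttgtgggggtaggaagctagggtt
CEP126 (chr11:101914860-101915009, plus strand): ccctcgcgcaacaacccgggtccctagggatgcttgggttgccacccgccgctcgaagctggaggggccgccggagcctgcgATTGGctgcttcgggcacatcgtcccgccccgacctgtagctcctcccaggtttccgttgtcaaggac

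Of the 42 members that were tested, 39 have a RefSeq window of 250 bases before to 50 bases after a start, and both strands of it were searched for 3 short motifs known from promoters of cell cycle genes. A gene counted as holding a motif where any of its windows did, with 1.21 windows per gene for the members and 1.44 for all tested genes. TTCCCGCC (reverse complement GGCGGGAA, an E2F-type sequence) was found in 10 of the 39 members, 25.6%, against 5.83% of the 11403 tested genes with a window. It was in 6 of 24 members that rose, 1 of 4 that fell and 3 of 11 that did not pass, so its share was about the same in members that rose and in members that did not pass. Counting only the first listed window of each gene, it was in 9 of 39 members, 23.1%, against 4.74% of tested genes.
The match is shown in capitals within 40 bases for the 9 members where such a stretch ends before the start; the other member that holds it, HAUS8, has it after the start.
CEP152 (chr15:48811249-48811288, minus strand): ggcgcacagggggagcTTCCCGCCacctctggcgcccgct
CEP192 (chr18:12991195-12991234, plus strand): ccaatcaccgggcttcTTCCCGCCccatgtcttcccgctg
CEP41 (chr7:130441224-130441263, minus strand): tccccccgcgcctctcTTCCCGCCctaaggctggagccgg
CEP68 (chr2:65056335-65056374, plus strand): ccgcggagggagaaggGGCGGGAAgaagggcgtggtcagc
CEP85 (chr1:26234086-26234125, plus strand): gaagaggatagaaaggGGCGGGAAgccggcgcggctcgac
HAUS1 (chr18:46104169-46104208, plus strand): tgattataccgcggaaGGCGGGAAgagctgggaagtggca
HAUS2 (chr15:42548762-42548801, plus strand): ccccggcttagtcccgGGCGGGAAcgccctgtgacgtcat
HAUS4 (chr14:22957148-22957187, minus strand): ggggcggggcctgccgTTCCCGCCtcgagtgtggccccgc
HAUS7 (chrX:153470620-153470659, minus strand): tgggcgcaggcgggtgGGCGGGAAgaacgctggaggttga

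The other motifs differed less from the background. TTTGAA (reverse complement TTCAAA, the core of the cell cycle genes homology region) was found in 12 of 39 members, 30.8%, against 14.1% of tested genes, and in 8 of 24 members that rose, 2 of 4 that fell and 2 of 11 that did not pass. CCAAT was found in 17 of 39 members, 43.6%, against 42.1% of tested genes, and in 11 of 24 members that rose, 3 of 4 that fell and 3 of 11 that did not pass. The 3 motifs share no base with one another where they match, and a match describes letters in the window, not a bound site.

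All 45 members were accounted for. CEP112, CEP15 and CEP162 lay below the filter on dim probe sets, an intensity of 12.04, and were not tested. CEP112 had intensities of 11.1 and 10.9 in mimic cells and 8.37 and 8.74 in miR-NC cells, CEP15 had 3.76 and 4.80 in mimic cells and 4.62 and 5.06 in miR-NC cells, and CEP162 had 7.23 and 9.12 in mimic cells and 9.27 and 8.87 in miR-NC cells. The 42 tested members all exceeded 16.8, the brightest of 20 control probe sets with no human target, on every array.

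Among the 42 tested members 26 were higher in the mimic cells, which is 61.9% of them, and 4 were lower, which is 9.52% (limma, adjusted p under 0.05 over 14123 genes). Over all genes tested, 28.1% were higher, 26.9% were lower and 55.0% changed in either direction. The other 12 members did not pass the test. The median log2 change of the members was 0.34 and that of all genes was -0.06, a difference of 0.39. Scaling to the poly(A) spikes, which are bacterial transcripts mixed into each RNA sample, lowers every gene by the same 0.35, which put the median of all genes at -0.40 and that of the members at -0.01, so the members' own direction is lost on that scale; the difference between the medians cannot change under it. The 2 mimic arrays lay on 1 side of both miR-NC arrays for 37 of 42 members, 88.1%, against 79.4% of all genes.

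**Figure D1:**
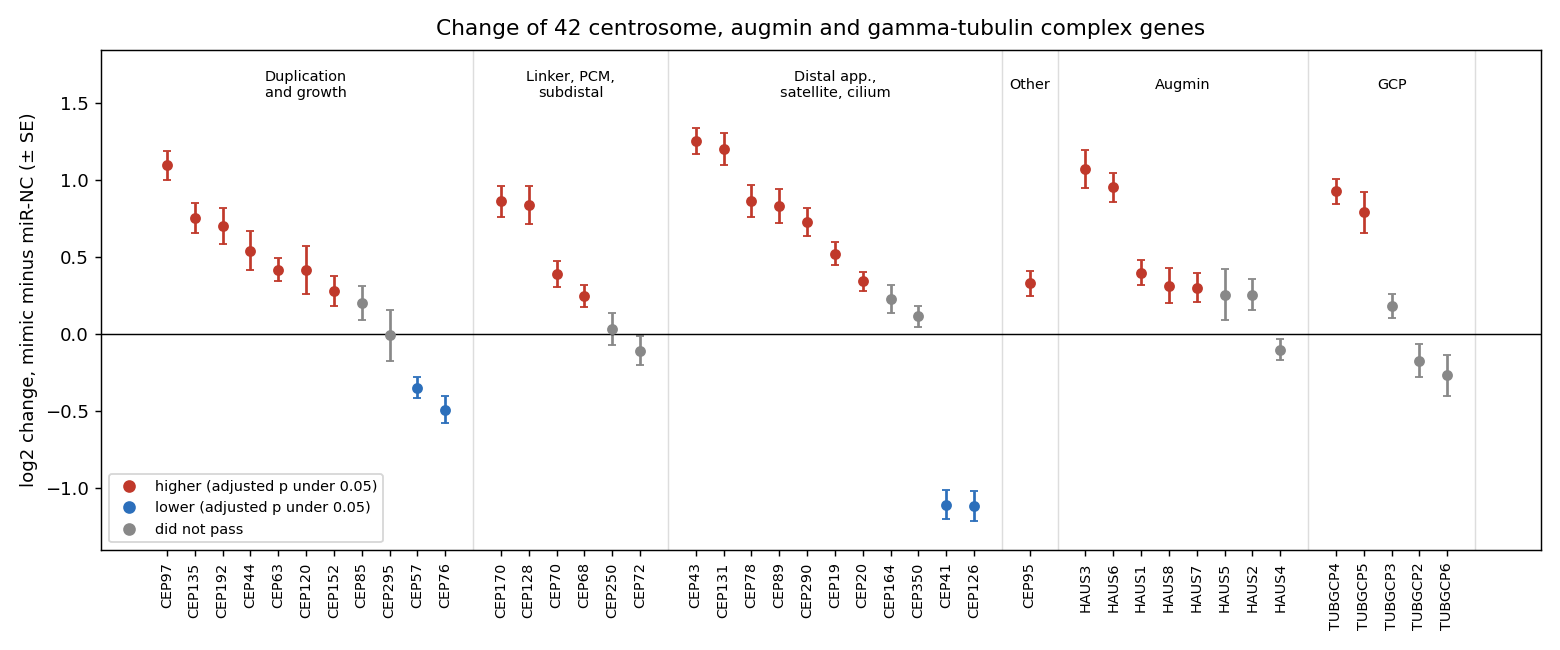
Log2 change of each of the 42 tested genes, mimic minus miR-NC, with its standard error, grouped by the role of the protein and coloured by whether it passed the test. CEP43 is the highest at 1.26 and CEP126 and CEP41 are the lowest at -1.11. Coloured as higher are 26 genes, against 4 as lower. With poly(A) spike scaling all values are 0.35 lower, and the separate fit on that scale called 14 genes higher and 10 lower.

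The spike scaling matters for the smaller changes. Of the 26 members that rose, 14 stayed higher on that scale, 6 kept a positive change without passing (CEP19, CEP44, CEP63, CEP70, CEP120 and HAUS1) and 6 took a value under 0 (CEP20, CEP68, CEP95, CEP152, HAUS7 and HAUS8). The 4 that fell stayed lower, and 6 that had not passed became lower. On the same scale 11.4% of all genes were higher and 58.0% were lower, against 33.3% and 23.8% of the members. The separate limma fit on that scale could give a smaller p-value for a smaller change with a larger SE. CEP43 was at 0.91 ± 0.12 (adjusted p = 3.65e-13) there, against 1.26 ± 0.09 (adjusted p = 6.47e-07) on the deposited scale. All p-values of the spike-scaled fit are affected, so counts of calls on this and the deposited scale are not like for like. Calls near the threshold are uncertain.

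The cumulative plot of changes shows the members against all genes.

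**Figure D2:**
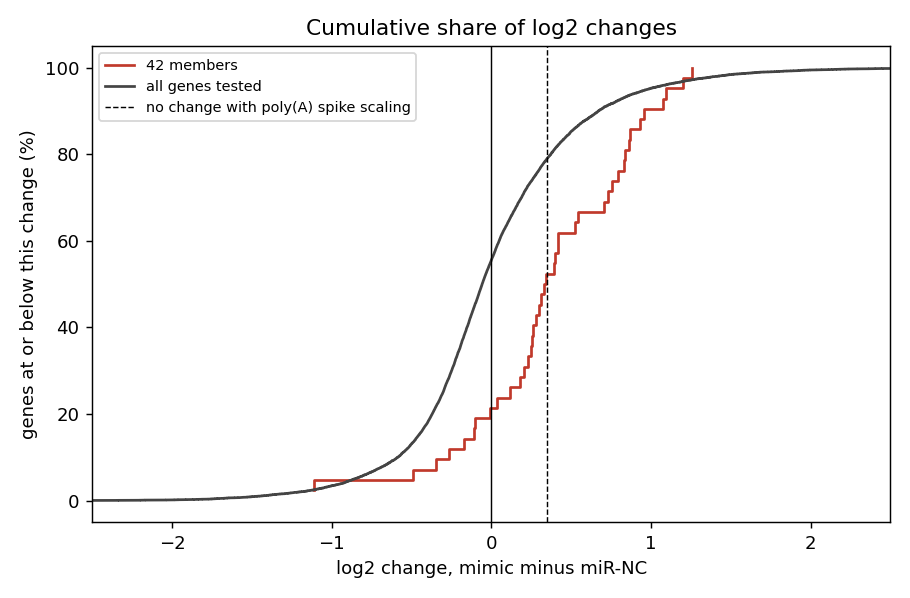
Share of genes at or below each log2 change (mimic minus miR-NC), for the 42 members and for all 14123 genes tested. The members' curve lies to the right of that of all genes over most of its range, with medians of 0.34 and -0.06, and the dashed line, at 0.35, marks where no change would lie with poly(A) spike scaling.

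Genes for copying and lengthening centrioles mostly rose, while 28.1% of all genes tested were higher and 26.9% were lower. Of 11 tested, 7 were higher, 2 were lower and 2 did not pass, with a median log2 change of 0.42; with poly(A) spike scaling 3 stayed higher and 2 stayed lower, and the median was 0.07. CEP97, which caps the growing end of the centriole together with CP110, had intensities of 130.5 and 133 in mimic cells and 62.1 and 60.9 in miR-NC cells. Both mimic arrays were well above both miR-NC arrays, and the log2 change was 1.10 ± 0.09 (SE; adjusted p = 2.88e-06). CEP135, a component of the cartwheel and the centriole wall, had 95.9 and 97.5 in mimic cells and 56.2 and 58.5 in miR-NC cells, a log2 change of 0.75 ± 0.10 (adjusted p = 6.97e-05). CEP192, the scaffold that brings PLK4 and gamma-tubulin to the centrosome, had 103 and 108 in mimic cells and 57.8 and 72.1 in miR-NC cells, a log2 change of 0.70 ± 0.12 (adjusted p = 4.67e-04). For each role group the CEP genes with the largest changes were chosen among those that passed without overlap of the groups. Their lack of overlap is therefore set by the choice, and it held for 79.4% of all genes tested. The miR-NC arrays of CEP192 were farther apart than its mimic arrays. With all probe sets of a gene averaged CEP97 was at 0.73 and CEP192 at 0.34, and both still passed. Such averages include probe sets below the no-target controls, as the other one of CEP192 was, at 4.06 to 4.40.

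CEP44, which is needed for a new centriole to become a centrosome, had 45.9 and 49.96 in mimic cells and 30.2 and 35.7 in miR-NC cells. Its log2 change was 0.54 ± 0.13 (adjusted p = 4.18e-03), and without mimic replicate 2 it was 0.48 and did not pass. CEP63, which forms the ring around the parent centriole with CEP152 and CEP57, had 406 and 387 in mimic cells against 283 and 310.3 in miR-NC cells, a log2 change of 0.42 ± 0.07 (adjusted p = 5.32e-04). Its brightest probe set may cross-hybridise by its name, and the brightest one without that mark gave 0.29, which did not pass. CEP120, a factor for centriole lengthening, and CEP152, which binds PLK4 at the parent centriole, passed narrowly, at log2 changes of 0.42 ± 0.16 (adjusted p = 0.0425) and 0.28 ± 0.10 (adjusted p = 0.0347). CEP120 had 34.2 and 36.9 in mimic cells and 22.8 and 30.96 in miR-NC cells, so the miR-NC arrays differed from each other by more than the mimic arrays did. Its log2 change was 0.47 without mimic replicate 1, 0.36 without mimic replicate 2 and 0.20 without control replicate 1, none of which passed, and 0.64 without control replicate 2, which did. CEP152 had 82.6 and 88.6 in mimic cells and 68.6 and 72.2 in miR-NC cells, and its call was lost on leaving out mimic replicate 1 (0.33) or 2 (0.23) or control replicate 1 (0.24), and after a second quantile normalization (0.24).

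The 2 genes of this group that were lower stood against the rest. CEP76, which restrains a second round of centriole copying, had 131 and 122 in mimic cells and 185 and 171 in miR-NC cells. The log2 change was -0.49 ± 0.09 (adjusted p = 6.68e-04). CEP57, the third protein of the ring around the parent centriole, had 431 and 389 in mimic cells and 525 and 518 in miR-NC cells, a log2 change of -0.35 ± 0.07 (adjusted p = 1.25e-03). The ring proteins therefore did not move one way on their brightest probe sets, with CEP63 and CEP152 higher and CEP57 lower. Neither lower call was kept when all probe sets of the gene were averaged: CEP76 was then at -0.15 and CEP57 at 0.01. CEP85, which binds the assembly factor STIL, had a log2 change of 0.20 (adjusted p = 0.151). CEP295, which stabilises new centrioles, was at -0.01 (adjusted p = 0.975), with 27.1 and 38.7 in mimic cells on either side of 32.4 and 32.7 in miR-NC cells.

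Genes outside the naming rule that act in the same step or control it were also higher or did not pass on the deposited scale. Of a list of 23 further gene symbols for centriole assembly and its control, which names KIAA0753 also as MNR, 19 were tested. Of these 13 were higher and 0 were lower at an adjusted p under 0.05, against 28.1% and 26.9% of all genes tested. The median log2 change of the 19 was 0.36. With poly(A) spike scaling 5 were higher, 2 were lower and the median was 0.01. This list, like those of further genes named later, was drawn up with earlier results of these data known. The largest were STIL, a scaffold of the cartwheel, at 1.93, PLK4, the kinase that starts centriole copying, at 1.78, and CCDC77 at 0.88. STIL had 245 and 266 in mimic cells and 59.4 and 75.8 in miR-NC cells, and PLK4 had 117 and 127 in mimic cells and 38.6 and 32.7 in miR-NC cells. With all probe sets averaged PLK4 was at 0.99 and CCDC77 at 0.42, and both still passed.

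Genes of the linker, the pericentriolar material and the subdistal appendages were higher or did not pass. Of 6 tested, 4 were higher, 0 were lower and 2 did not pass, against 28.1% higher and 26.9% lower of all genes tested. The median log2 change of the 6 was 0.32, or -0.03 with poly(A) spike scaling, where 2 were higher and 2 were lower. CEP170, a protein of the subdistal appendages that anchor microtubules on the older centriole, had 219 and 254 in mimic cells and 121 and 139 in miR-NC cells. Its log2 change was 0.86 ± 0.10 (adjusted p = 2.98e-05). With all probe sets of CEP170 averaged the change was 0.24 and did not pass. That mean includes probe sets at 2.94 to 3.24 and at 8.31 to 9.03, under the no-target controls at 16.8. The other probe set above those controls was at 0.16 and did not pass (adjusted p = 0.420). A probe set shared with the pseudogene CEP170P1 read 3.83 to 4.27, also under those controls. Which of these transcripts each probe set reads was not tested. CEP128, another subdistal appendage protein, had 66.3 and 76.5 in mimic cells and 42.4 and 37.4 in miR-NC cells, a log2 change of 0.84 ± 0.12 (adjusted p = 1.55e-04). CEP170, CEP128, CEP70 and CEP68 were chosen among genes without overlap of the groups, so its lack is set by the choice.

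CEP70, which binds gamma-tubulin, had 301 and 288 in mimic cells and 243 and 207 in miR-NC cells, a log2 change of 0.39 ± 0.09 (adjusted p = 2.78e-03); without mimic replicate 1 it was 0.36 and did not pass. CEP68, a protein of the fibres that link the centrosomes, had 251.5 and 256 in mimic cells and 215 and 212 in miR-NC cells, a log2 change of 0.25 ± 0.07 (adjusted p = 0.0127). Both were higher on both mimic arrays, but CEP68 did not pass without mimic replicate 1 (0.26), without mimic replicate 2 (0.24), with all its probe sets averaged (0.13) or on its brightest probe set that carries no mark of cross-hybridisation (0.09). CEP250, or C-Nap1, which anchors the linker to the centriole, had a log2 change of 0.03 (adjusted p = 0.797), and CEP72, a protein of the pericentriolar material, had -0.11 (adjusted p = 0.356). For both the arrays of the 2 groups overlapped. Of the 2 other probe sets of CEP250, 1 was higher, at 0.50 (adjusted p = 8.68e-03), and 1 did not pass.

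The further list for the linker and the pericentriolar material had 16 genes, all tested, of which 10 were higher and 2 were lower. Over all genes tested 28.1% were higher and 26.9% were lower. The median log2 change of the 16 was 0.38. With poly(A) spike scaling 6 of the 16 were higher, 4 were lower and the median was 0.04. NEK2, the kinase that dissolves the linker before mitosis, was at 3.45, TACC3, a spindle microtubule protein, at 1.76, and AURKA, a mitotic kinase of the centrosome, at 1.66. NEK2 had 441 and 455 in mimic cells and 38.5 and 43.8 in miR-NC cells. The 2 that fell were TACC1 at -0.81 and NUMA1, which focuses spindle poles, at -0.59. With all probe sets averaged, TACC3 was at 0.64, TACC1 at -0.48 and NUMA1 at -0.40.

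Genes of the distal appendages, centriolar satellites and the cilium held both the highest and the lowest changes among the members. Of 11 tested, 7 were higher, 2 were lower and 2 did not pass, against 28.1% higher and 26.9% lower of all genes tested. The median log2 change of the 11 was 0.52. With poly(A) spike scaling 5 of the 11 were higher, 3 were lower and the median was 0.18. For all 11 the groups did not overlap, as was the case for 79.4% of all genes tested. CEP43, also called FOP, acts at the centriole with CEP350 and CEP19 in cilium formation, and had 263 and 289 in mimic cells and 111 and 120.5 in miR-NC cells. Its log2 change of 1.26 ± 0.09 (adjusted p = 6.47e-07) was 2.39-fold. CEP131, a satellite protein, had 83.1 and 83.0 in mimic cells and 36.1 and 36.2 in miR-NC cells, so replicate arrays were almost the same and the groups far apart. Its log2 change was 1.20 ± 0.11 (adjusted p = 3.70e-06), or 2.30-fold.

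CEP78, a centriole protein that regulates a ubiquitin ligase, had 92.1 and 101 in mimic cells and 51.8 and 54.0 in miR-NC cells, a log2 change of 0.87 ± 0.10 (adjusted p = 3.66e-05). CEP89, a distal appendage protein, had 94.6 and 101 in mimic cells and 59.6 and 50.6 in miR-NC cells, a log2 change of 0.83 ± 0.11 (adjusted p = 9.16e-05). With its probe sets averaged CEP78 was at 0.39 and still passed. CEP290, which builds the transition zone at the base of the cilium, had 124.1 and 123.8 in mimic cells and 77.2 and 72.5 in miR-NC cells, a log2 change of 0.73 ± 0.09 (adjusted p = 6.01e-05), or 0.48 with its probe sets averaged, which passed. CEP19 and CEP20 (FOR20), both factors for cilium formation, rose by less, at log2 changes of 0.52 ± 0.08 (adjusted p = 1.59e-04) and 0.34 ± 0.06 (adjusted p = 6.40e-04). Their groups did not overlap, with CEP19 at 271 and 287 in mimic cells and 187 and 200.1 in miR-NC cells, and CEP20 at 612 and 630.4 in mimic cells and 503 and 476 in miR-NC cells. CEP164, the distal appendage protein through which membrane docks on the older centriole, had a log2 change of 0.23 and missed the threshold (adjusted p = 0.0596), and CEP350, the partner of CEP43 and CEP19, was at 0.12 (adjusted p = 0.165). CEP164 passed without control replicate 2 (0.27) and, at the same change, with the filter at the 50th percentile. CEP350 passed with all its probe sets averaged (0.24, adjusted p = 0.0142), and 1 of its other probe sets was higher at 0.79 (adjusted p = 5.85e-04).

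CEP41 and CEP126 were the 2 members that fell at least 2-fold. CEP41, which is needed to add glutamates to the tubulin of the cilium, had 67.6 and 71.1 in mimic cells and 143 and 156 in miR-NC cells. The log2 change was -1.11 ± 0.09 (adjusted p = 3.03e-06), 2.16-fold lower, with a wide gap between the groups. CEP126, a satellite protein, had 78.0 and 68.6 in mimic cells and 160.0 and 157 in miR-NC cells, and its log2 change was -1.11 ± 0.10 (adjusted p = 3.61e-06), or 2.16-fold lower. With all probe sets averaged both stayed lower, CEP41 at -0.36 and CEP126 at -0.42. The average of CEP126 includes a probe set below the no-target controls, at 6.93 to 9.41. Its other probe set, above those controls, was at 0.24 and did not pass.

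**Figure D3:**
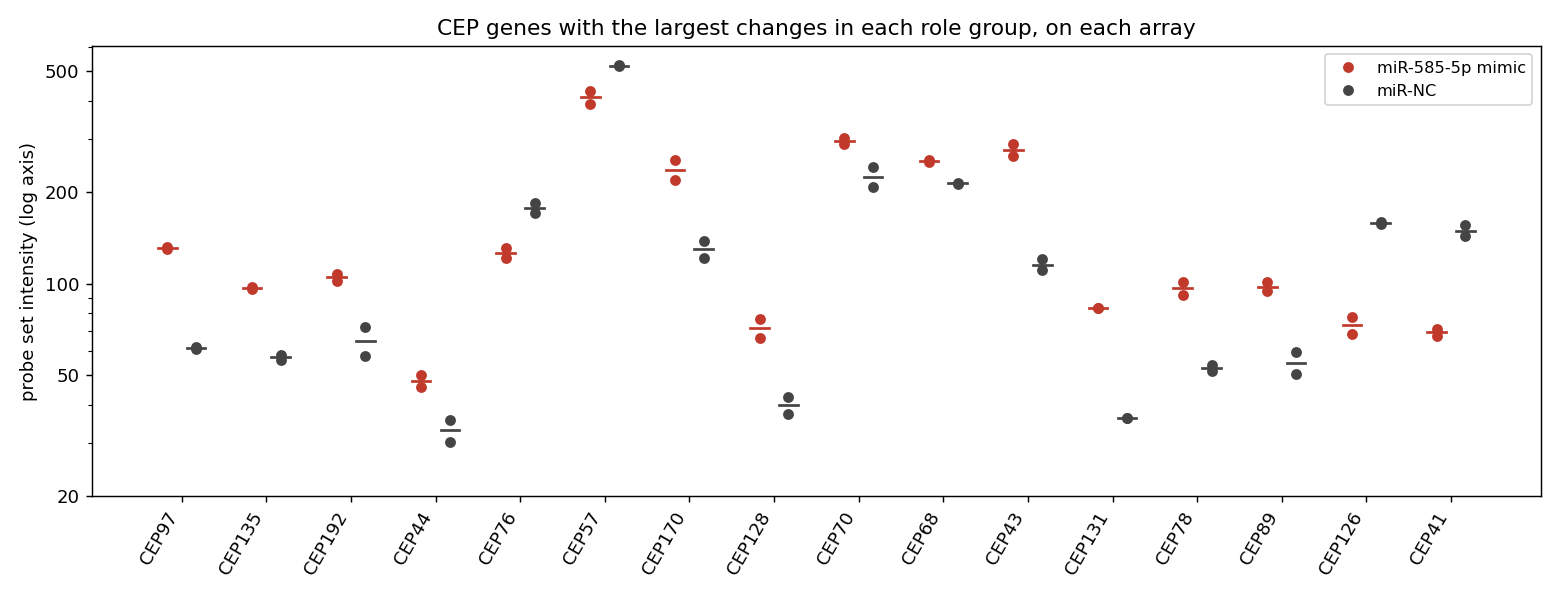
Probe set intensity on each array (points, log axis) and group mean (line) of the 16 CEP genes with the largest changes in each role group, mimic on the left of each pair and miR-NC on the right. The 16 were chosen among genes that passed without overlap of the groups, so the lack of overlap is set by the choice. Of them 12 lie higher in mimic cells, and CEP76, CEP57, CEP126 and CEP41 lie lower.

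Of 21 further satellite and cilium genes 20 were tested, of which 9 were higher and 5 were lower. Over all genes tested 28.1% were higher and 26.9% were lower. The median log2 change of the 20 was 0.17. With poly(A) spike scaling 5 of the 20 were higher, 9 were lower and the median was -0.17. RPGRIP1L, a transition zone protein, was at 1.27, SCLT1, a distal appendage protein, at 0.88, and TMEM67, a transition zone membrane protein, at 0.80. BBS4, a subunit of the BBSome cargo coat, was at -0.81, OFD1, which limits centriole length, at -0.66, and FBF1, a distal appendage protein, at -0.56. Several of these depended on a choice: TMEM67 did not pass without mimic replicate 1 (0.77) or 2 (0.83) and was at 0.47, still passing, without control replicate 1; FBF1 did not pass without mimic replicate 1 (-0.52) or with probe sets averaged (-0.21), where RPGRIP1L was at 0.74 and OFD1 at -0.33 and passed; and SCLT1 on a probe set without the mark of cross-hybridisation was at 0.23, which did not pass.

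CEP95, to which no role was assigned, had 300.4 and 311 in mimic cells and 228 and 259 in miR-NC cells. Its log2 change was 0.33 ± 0.08 (adjusted p = 4.73e-03), and 0.31 without mimic replicate 2, which did not pass.

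Of the 8 augmin subunits 5 were higher, 0 were lower and 3 did not pass, against 28.1% higher and 26.9% lower of all genes tested. The median log2 change of the 8 was 0.31, or -0.04 with poly(A) spike scaling, where 2 were higher and 1 was lower. HAUS3 had 108 and 116 in mimic cells and 47.3 and 59.6 in miR-NC cells. Its log2 change was 1.07 ± 0.12 (adjusted p = 2.71e-05), 2.10-fold, and the averaged probe sets gave 0.33, which still passed. HAUS6, the subunit that contacts the gamma-tubulin complex, had 132 and 141 in mimic cells and 68.9 and 71.6 in miR-NC cells, a log2 change of 0.96 ± 0.09 (adjusted p = 8.47e-06). On their brightest probe sets HAUS3 and HAUS6 stood clear of the other subunits, whose changes were at most 0.40. The other tested probe set of HAUS3 was at 0.18 and did not pass, while those of HAUS6 were higher, at 1.40 and 0.51.

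HAUS1 had 638 and 645 in mimic cells and 445 and 531 in miR-NC cells, a log2 change of 0.40 ± 0.08 (adjusted p = 1.45e-03). HAUS8, the subunit that binds the existing microtubule, had 62.8 and 65.7 in mimic cells and 48.3 and 55.2 in miR-NC cells, a log2 change of 0.31 ± 0.11 (adjusted p = 0.0364). HAUS7 had 118 and 124 in mimic cells and 93.8 and 103 in miR-NC cells, a log2 change of 0.30 ± 0.09 (adjusted p = 0.0190). The groups did not overlap for any of these 3, but HAUS8 lost its call on leaving out mimic replicate 1 (0.35) or 2 (0.28) or control replicate 1 (0.22) and after a second quantile normalization (0.28), and HAUS7 lost its call on leaving out mimic replicate 1 (0.34) or 2 (0.26) or control replicate 1 (0.23).

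HAUS2 had 78.4 and 85.5 in mimic cells and 68.1 and 69.1 in miR-NC cells, and at a log2 change of 0.26 ± 0.10 it missed the threshold (adjusted p = 0.0520). HAUS2 passed with the filter at the 50th percentile (adjusted p = 0.0425), without the mean-variance trend (adjusted p = 0.0389) and with its probe sets averaged (0.21, adjusted p = 0.0331). HAUS5 had 24.8 and 34.3 in mimic cells and 26.2 and 22.6 in miR-NC cells, a log2 change of 0.26 ± 0.17 (adjusted p = 0.217). HAUS4 had 454 and 422 in mimic cells and 486 and 454 in miR-NC cells, a log2 change of -0.10 ± 0.07 (adjusted p = 0.226). The groups of HAUS5 and HAUS4 overlapped and those of HAUS2 did not. In augmin of the frog the subunits form a pair of subassemblies, one of HAUS2, HAUS6, HAUS7 and HAUS8 and one of HAUS1, HAUS3, HAUS4 and HAUS5. Of the first set 3 of 4 subunits rose, with a median log2 change of 0.31, and of the second set 2 of 4 rose, with a median of 0.33, so each set held a member near 1; HAUS2 of the first set and HAUS4 and HAUS5 of the second did not pass.

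**Figure D4:**
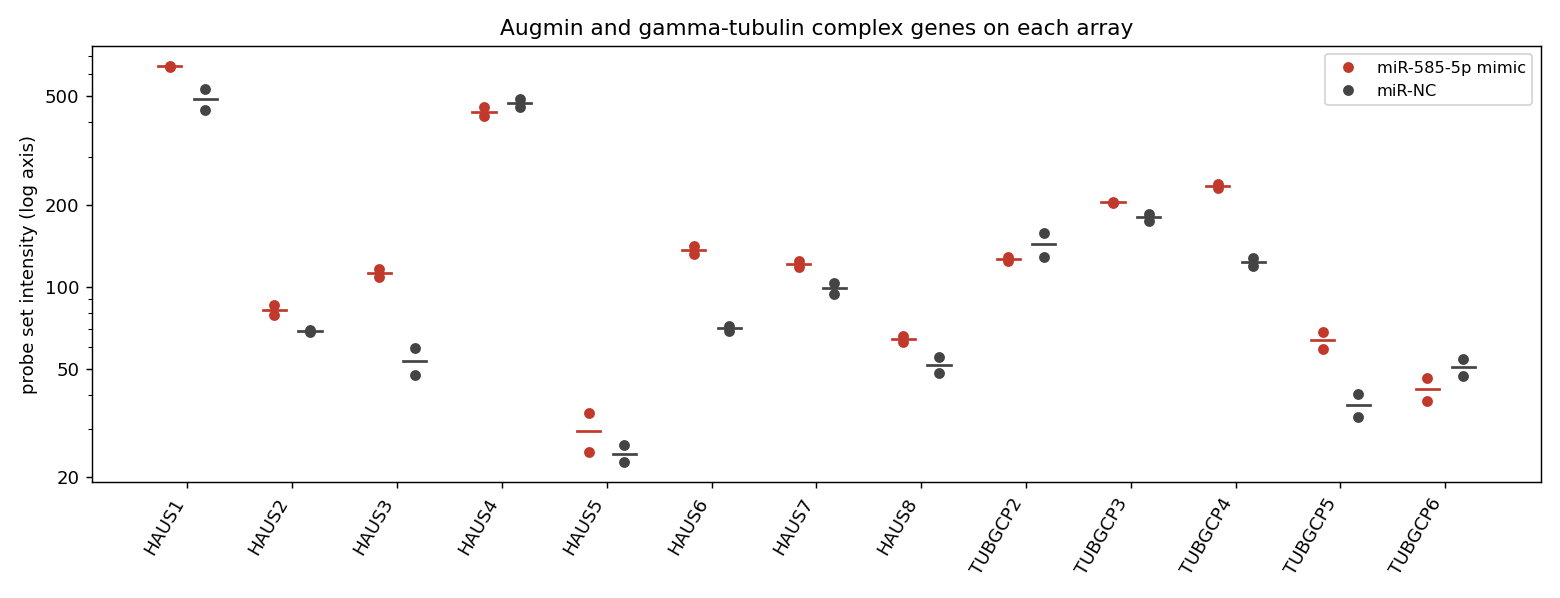
Probe set intensity on each array (points, log axis) and group mean (line) of the 8 augmin and 5 gamma-tubulin complex genes, mimic on the left of each pair and miR-NC on the right. HAUS3, HAUS6, TUBGCP4 and TUBGCP5 show the widest gaps, and HAUS4 and HAUS5 overlap.

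TUBGCP4 and TUBGCP5 were the gamma-tubulin complex genes that rose. TUBGCP2 and TUBGCP3 make up the small complex, and TUBGCP4, TUBGCP5 and TUBGCP6 are found only in the full ring. Of the 5, 2 were higher, 0 were lower and 3 did not pass, against 28.1% higher and 26.9% lower of all genes tested. The median log2 change of the 5 was 0.18, or -0.16 with poly(A) spike scaling, where 2 were higher and 2 were lower. TUBGCP4 had 230.1 and 239 in mimic cells and 119 and 127 in miR-NC cells, a log2 change of 0.93 ± 0.08 (adjusted p = 3.63e-06). TUBGCP5 had 59.0 and 68.4 in mimic cells and 33.2 and 40.5 in miR-NC cells, a log2 change of 0.79 ± 0.13 (adjusted p = 4.72e-04). Both were higher on both mimic arrays, and TUBGCP5 was at 1.29 on its brightest probe set without the mark of cross-hybridisation.

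TUBGCP3 had 205 and 202 in mimic cells and 174 and 185 in miR-NC cells, a log2 change of 0.18 ± 0.08 (adjusted p = 0.0699). Of the 4 other probe sets of TUBGCP3, 1 was higher, at 0.82 (adjusted p = 1.80e-03), and 3 did not pass. TUBGCP2 had 125 and 127.9 in mimic cells and 158 and 128.2 in miR-NC cells, a log2 change of -0.17 ± 0.11 (adjusted p = 0.195). TUBGCP6, the largest of the ring proteins and a substrate of PLK4, had 46.1 and 38.1 in mimic cells and 47.1 and 54.1 in miR-NC cells, a log2 change of -0.27 ± 0.13 (adjusted p = 0.110). None of the 3 passed, although their groups did not overlap, and the value of TUBGCP2 rested on 1 miR-NC array, being -0.022 without control replicate 1. Without control replicate 2, TUBGCP3 (0.22) and TUBGCP2 (-0.32) passed, and without control replicate 1, TUBGCP6 (-0.37) passed, as it did with its probe sets averaged (-0.26).

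Of 13 further genes around gamma-tubulin 11 were tested, of which 4 were higher and 3 were lower. Both directions were also common over all genes tested, at 28.1% higher and 26.9% lower. The median log2 change of the 11 was 0.15. With poly(A) spike scaling 2 of the 11 were higher, 5 were lower and the median was -0.20. MZT1, the small protein that binds the complex proteins and makes the ring competent, had 685 and 674 in mimic cells and 223 and 244 in miR-NC cells, a log2 change of 1.54 ± 0.07 (adjusted p = 3.62e-08). TUBD1 (delta-tubulin) was at 1.06 and LGALS3BP at 0.39, while AKAP9, an anchor of the ring at the Golgi and centrosome, was at -0.79, TUBG2 at -0.74 and MZT2A at -0.14. Of the genes of gamma-tubulin itself TUBG1 was higher and TUBG2 lower, but with poly(A) spike scaling TUBG1 was at -0.043 and did not pass, while TUBG2 stayed lower. TUBG1 had 1083 and 1103 in mimic cells and 892 and 879 in miR-NC cells, a log2 change of 0.30 ± 0.05 (adjusted p = 4.45e-04), and TUBG2 had 702 and 614 in mimic cells and 1073 and 1116 in miR-NC cells (adjusted p = 5.68e-06). MZT2A lost its call on leaving out mimic replicate 1 (-0.11) or 2 (-0.17) or control replicate 2 (-0.12), and AKAP9 did not pass with its probe sets averaged (-0.14), and LGALS3BP did not pass with poly(A) spike scaling (0.040).

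A gene's probe sets read different parts of its transcripts, so they were also tested one by one, a comparison added after the first results were seen. Of 115 probe sets of the tested members 56 were higher and 8 were lower, against 27.0% higher, 23.9% lower and 51.0% in either direction among all 34508 probe sets above the filter, of which 76.8% had no overlap of the groups. Of the 30 members called on their brightest probe set, 22 had another one tested that exceeded the no-target controls on at least 1 array. For 15 of these 22, at least 1 other probe set passed in the same direction, for 2 at least 1 passed in the opposite direction, and for 7 no other passed. All 3 others of CEP43 and of CEP20, both others of HAUS6 and of CEP290, and 7 of 8 others of CEP70 were higher, as was the single other one of CEP19, CEP78, CEP89, CEP135, TUBGCP4 and TUBGCP5. No other passed for CEP76, CEP95, CEP97, CEP126, CEP170, HAUS3 and HAUS7.

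**Figure D5:**
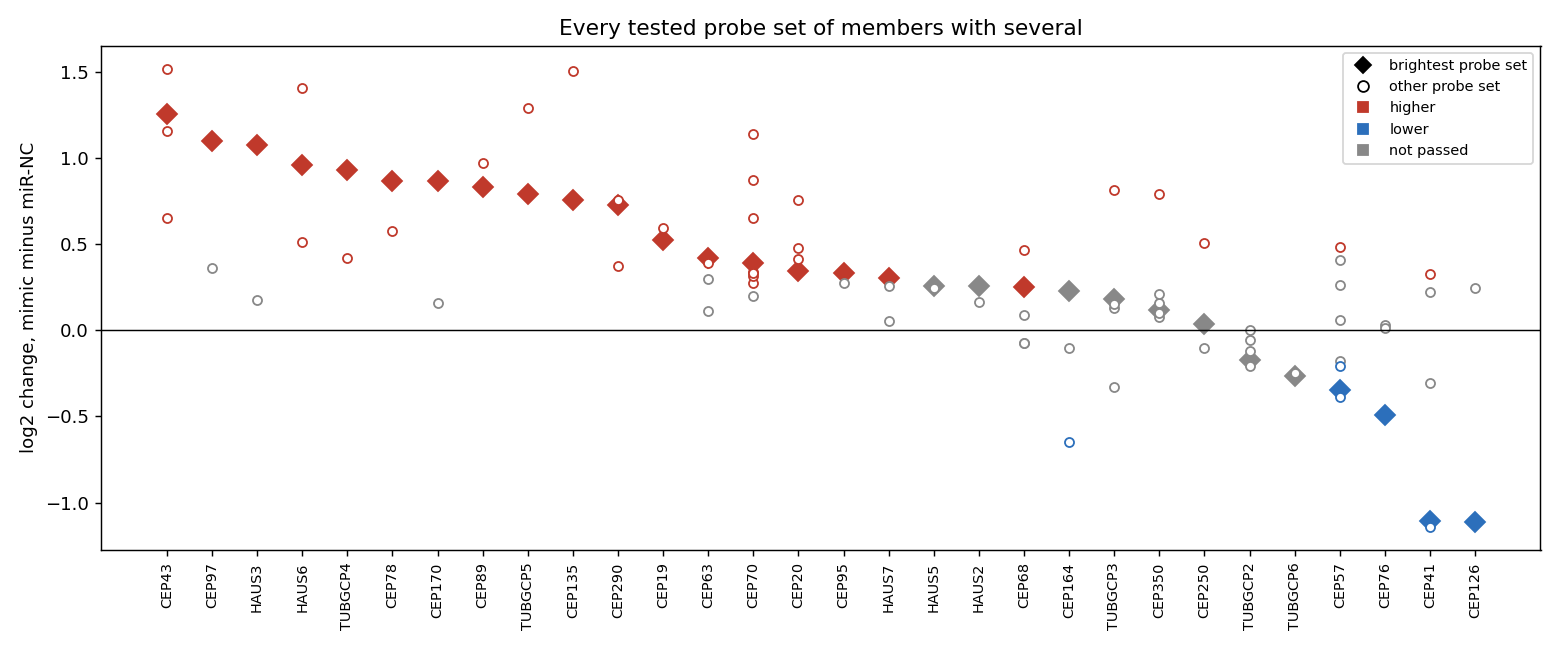
Log2 change (mimic minus miR-NC) of every tested probe set that exceeded the no-target controls, for the members with more than 1, ordered by the change of the brightest (diamond); circles are the others and colour gives the call. The circles of CEP43 lie between 0.65 and 1.52, all higher, while those of CEP41 and CEP57 lie on both sides of 0.

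The probe sets of CEP41 and CEP57 did not move one way. For CEP41 a second probe set matched the brightest, with 61.5 and 60.02 in mimic cells and 133 and 135 in miR-NC cells, a log2 change of -1.14 ± 0.10. Another probe set of CEP41 was higher, with 47.3 and 46.7 in mimic cells and 35.1 and 40.1 in miR-NC cells, a log2 change of 0.32 ± 0.12 (adjusted p = 0.0436), and 2 did not pass. For CEP57, 2 of 7 others were lower, 4 did not pass and 1 was higher, with 198 and 192 in mimic cells and 138 and 141 in miR-NC cells, a log2 change of 0.48 ± 0.08 (adjusted p = 3.56e-04). The single other tested probe set of CEP126 was at 0.24 (adjusted p = 0.0877), with 58.1 and 63.2 in mimic cells and 50.6 and 51.9 in miR-NC cells. CEP164, which did not pass on its brightest probe set, had another that was lower, with 11.2 and 10.6 in mimic cells and 16.8 and 17.4 in miR-NC cells, at the level of the no-target controls. Which transcript forms these probe sets detect was not tested.

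The arrays were alike in brightness, with medians of 30.6 to 31.1 for mimic and 30.7 to 31.3 for miR-NC, and correlated at 0.998 and 0.997 within the groups and at 0.978 to 0.983 between them, across probe sets. RNA integrity, read as the 3′ over 5′ ratio of GAPDH, stood at 1.11 in both mimic samples against 1.22 and 1.16 in the miR-NC samples. The same ratio of ACTB was far from 1 in both groups, at 14.3 in both mimic samples and 14.4 and 13.8 in the miR-NC samples. The part of RNA integrity in the changes was not tested. All 7 measured squamous epithelial markers of a list of 10 exceeded the no-target controls on every array, with a summed intensity of 21464 to 22272 in mimic cells and 20438 to 20825 in miR-NC cells. KRT6A, KRT17 and TP63 of that list were not among the genes tested. Within that list 3 were higher and 4 were lower, with KRT14 at a log2 change of 0.97, ITGB4 at -1.11 and CDH1 at -1.26. Among markers of other cells COL3A1, DCN and LUM of fibroblasts, PTPRC and ITGAM of immune cells and CDH5 of endothelium lay below the filter. The 3 of 6 fibroblast markers tested summed to 71.3 to 73.9 in mimic cells and 73.5 to 81.3 in miR-NC cells, the 3 of 4 endothelial ones to 93.4 to 110.3 in mimic cells and 130 to 139 in miR-NC cells, and the 2 of 5 immune ones to 100.3 to 116 in mimic cells and 72.9 to 78.3 in miR-NC cells, of which CD14 was higher (0.68), while COL1A1 (-0.47) and KDR (-0.73) of the other lists were lower. Of the tested markers of other cells, 2 fibroblast, 2 endothelial and 1 immune marker exceeded the no-target controls on every array. Part of those sums may therefore be background. The part of all these markers in the members' changes was not tested. In RNA of a whole culture, a change in the share of cells in a state, such as a cell cycle phase, and a change of RNA per cell cannot be told apart.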

How the data were processed

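RNA of 4 SCC-9 samples was measured on PrimeView arrays, 2 per group, and groups were taken from the sample titles. The authors deposited 1 intensity for each probe set and array, made with RMA per the submitters' processing notes. RMA corrects background and normalizes between arrays, which hides a shift of most transcripts together. It usually reports log2 values, while the deposited intensities span 2.09 to 17329, so they were taken to be linear and were converted to log2 here. Other steps before deposit are not given in the sources used here. The number of arrays limits the precision, with a median SE of a log2 change of 0.10.

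Gene names came from the platform annotation, which gives 1 symbol to 44988 of 49395 probe sets, and no others were used for the members. A gene was represented by the probe set with the highest mean. Genes with a mean above an intensity of 12.04, the 30th percentile over probe sets, entered the test, mimic minus miR-NC, by limma version 3.58.1 (R version 4.3.3), using lmFit and then eBayes with its trend option. Tests were two-sided, p-values were adjusted by Benjamini-Hochberg over all of these genes, and 0.05 was the threshold. The main fit had 2 residual and 8.35 prior degrees of freedom. Errors of log2 changes are SEs. The fit was also run on simulated data whose spreads followed its own model and in which few genes changed. That run checks the code and cannot show how well the model holds for these arrays. Adjusted p-values of single probe sets come from 1 fit over all probe sets above the filter.

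The members, their role groups and the lists of further genes were chosen with earlier results of these data known. Values of every array were given for each HAUS and TUBGCP member and for up to 4 risen and 4 fallen CEP members of each role group with the largest change among those that passed without overlap of the groups; up to 3 changed genes in each direction were named from each list of further genes. Other members were added for their roles, and TUBG1 was chosen after its values were seen. Alternatives were a second quantile normalization, scaling to the 11 poly(A) spike probe sets, no filter or one at the 50th percentile, the mean of all probe sets of a gene, the brightest probe set not named as cross-hybridising (_x_at or _s_at), no mean-variance trend, the replicate number as a block, and leaving out each array. The mean of all probe sets of a gene includes those below the no-target controls. Sequences are those of RefSeq on GRCh38.p14. Sites of the microRNA seed in transcripts were not analysed here.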

Additional observations from a re-analysis of the deposited data

Results flagged for a closer look

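A signal was found in probe sets that entered no comparison of the members, because the annotation gives them 2 symbols, TREX2 and HAUS7, whose transcripts they cannot tell apart. The first had 69.2 and 68.2 in mimic cells and 50.8 and 54.7 in miR-NC cells, a log2 change of 0.38 ± 0.11 (adjusted p = 0.0108). The second had 59.5 and 64.3 in mimic cells and 50.4 and 40.7 in miR-NC cells, a log2 change of 0.45 ± 0.13 (adjusted p = 0.0116). Both were above the no-target controls and higher on both mimic arrays than on either miR-NC array. The brightest probe set of HAUS7 alone was at 0.30. A probe set shared by TUBGCP3 and LINC00431 had 34.8 and 35.0 in mimic cells and 27.3 and 41.95 in miR-NC cells, a log2 change of 0.04 (adjusted p = 0.851).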

How the results depend on the processing

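The count of members higher, 26, and lower, 4, stayed within 1.5 times under every alternative but 1: with poly(A) spike scaling 14 members were higher and 10 were lower, and of all genes 1613 were higher and 8198 were lower, against 3966 and 3802. That scaling shifts every log2 change down by 0.35, and the shift itself is uncertain, since the miR-NC arrays' own shifts were -0.26 and -0.08. Its fit also gave p-values on a different footing, so its counts are not like for like with the others. Leaving out 1 array, where the lone array of a group is assumed to vary like the other group, gave 19 to 28 members higher, 4 to 5 lower, 2897 to 4087 genes higher and 2509 to 4041 lower; the lowest value of each count except that of members lower was without mimic replicate 2. Signs turned for members with small changes. With poly(A) spike scaling CEP152 was at -0.065, CEP164 at -0.12, CEP20 at -0.0028, CEP250 at -0.31, CEP350 at -0.23, CEP68 at -0.10, CEP85 at -0.14, CEP95 at -0.015, HAUS2 at -0.090, HAUS5 at -0.088, HAUS7 at -0.045, HAUS8 at -0.032, TUBGCP3 at -0.16 and, outside the naming rule, TUBG1 at -0.043, by the construction of the shift. After a second quantile normalization CEP250 was at -0.0097. Leaving out 1 array put CEP250 between -0.066 and 0.13 and CEP295 between -0.26 and 0.25, both turned without mimic replicate 1. Averaging all probe sets of a gene put CEP164 at -0.19, CEP57 at 0.012 and CEP85 at -0.15. The other probe set of CEP85 lay below the no-target controls, at 4.61 to 8.08. Single probe sets passed at 0.48 for CEP57, 0.32 for CEP41 and -0.65 for CEP164. The cause of these differences was not tested. Over the 12 alternatives, 13 of the 26 risen members and 2 of the 4 fallen ones kept their call in every one that gave them a value, which for CEP128 leaves 11, since its averaged probe sets lay below the filter. These were CEP43, CEP78, CEP89, CEP97, CEP128, CEP131, CEP135, CEP192, CEP290, HAUS3, HAUS6, TUBGCP4 and TUBGCP5, and CEP41 and CEP126. Most alternatives use the same brightest probe set of a gene, and the averages include it. Taken one by one, no other probe set passed for CEP97, HAUS3 and CEP126, and 1 of CEP41 was higher. CEP128, CEP131 and CEP192 had no other one tested above the no-target controls. The labels do not say whether same-numbered arrays share anything but the number. Their deviations correlated at 0.085. With the replicate number as a block 28 members were higher and 4 lower, with 4132 genes higher and 4120 lower, HAUS2 and CEP164 passing in addition. CEP120 also did not pass with no filter or with no mean-variance trend.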
